A study of Mus musculus with 2 samples.

Results

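Among the H3K4me3 peaks of a mouse embryonic stem cell line, 20288 of 62115 (32.7%) were narrow, lay far from every annotated gene start and overlapped the body of a gene. They were chosen by measured and annotated values from the authors' list of replicated peaks on mm10: a width under 2000 bp, a nearest edge over 5 kb from the 5′ end of every gene of any type in the RefSeq table (assembly GRCm38.p6), and overlap with at least 1 gene body. Only chromosomes 1 to 19, X and Y were used, which left out 13 peaks on other sequences. The width, the position and the presence in that list chose these peaks, so their widths and signals are given as description without a test. They are called narrow gene-body peaks from here on.

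ChIP-seq, the sequencing of DNA recovered with an antibody, was aimed at H3K4me3, the trimethylated lysine 4 of histone H3, in E14TG2a.4, a male line of embryonic stem cells of strain 129/Ola. All the data belong to 1 group of 2 replicates, labelled as biological replicates, with no treatment or altered genotype compared, and all of it from 1 cell line. No difference between conditions could therefore be tested, and the sequencing depth behind the lists is unknown. Among genes that define the labelled cell type, the signal value at the 5′ end was 69.4 at Pou5f1, 66.1 at Sox2 and 37.7 at Nanog. It was 12.1 at Prdm14, and Esrrb and Nr5a2 had no peak there. Of 31 core and naive pluripotency genes with body over 5 kb from every 5′ end (eligible body), 29 had a peak within 1 kb of the 5′ end. So did 17 of 25 fibroblast genes with eligible body, which could mark feeder cells. The same held for 12 of 35 liver and blood genes and 11773 of all 15893 protein-coding genes.

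H3K4me3 is deposited mainly by the SET1/COMPASS and MLL complexes, which are drawn to unmethylated CpG-rich DNA and to transcribing RNA polymerase II at gene starts. Away from annotated starts, the mark can occur at alternative promoters inside genes, at enhancers that are themselves transcribed, and at CpG-rich sequence of transposable elements. In embryonic stem cells the bodies of self-renewal genes also hold many enhancers bound by Oct4, Sox2, Klf4 and Esrrb.

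The strongest narrow gene-body peaks lay mostly at RefSeq transcript starts other than the gene's outermost end, and the 250 bases before such starts are shown for 3 of the 10 strongest, with every CG dinucleotide in capitals. They are RefSeq sequences of GRCm38.p6, read 5′ to 3′ on the plus strand: Triobp at chr15:78982806-78983055, Osbpl11 at chr16:33184821-33185070 and Med10 at chr13:69809632-69809881.
Triobp: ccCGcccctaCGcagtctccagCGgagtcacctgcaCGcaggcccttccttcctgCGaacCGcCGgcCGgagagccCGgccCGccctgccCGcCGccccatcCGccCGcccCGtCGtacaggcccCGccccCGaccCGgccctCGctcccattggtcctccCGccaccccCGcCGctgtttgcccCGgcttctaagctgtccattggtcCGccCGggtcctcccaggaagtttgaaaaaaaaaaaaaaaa
Osbpl11: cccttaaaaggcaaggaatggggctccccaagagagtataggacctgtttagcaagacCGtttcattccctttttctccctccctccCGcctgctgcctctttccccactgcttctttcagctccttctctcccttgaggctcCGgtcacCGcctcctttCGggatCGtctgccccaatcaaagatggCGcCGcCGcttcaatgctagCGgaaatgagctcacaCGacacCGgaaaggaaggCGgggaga
Med10: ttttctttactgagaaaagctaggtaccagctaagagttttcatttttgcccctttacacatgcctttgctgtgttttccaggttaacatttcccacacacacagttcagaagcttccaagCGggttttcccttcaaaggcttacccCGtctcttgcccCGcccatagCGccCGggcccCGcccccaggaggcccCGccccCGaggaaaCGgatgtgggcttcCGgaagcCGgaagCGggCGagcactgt
Triobp had 26 CG dinucleotides in this window and a GC content of 69.6%, Osbpl11 had 13 and 56.8%, and Med10 had 13 and 56.0%.

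For peaks away from such starts, sequence could be read only on mm9, where the authors' pooled list of broader regions has a genome of its own build, so 300 bases at the centre of 3 mm9 regions that touch no exon are shown from genes rich in narrow gene-body peaks. They are Esrrb at chr12:87773851-87774150, Pitpnc1 at chr11:107237551-107237850 and Gse1 at chr8:123022351-123022650, all mm9, plus strand. Capitals mark matches, on either strand, to the motif words listed with the motif results.
Esrrb: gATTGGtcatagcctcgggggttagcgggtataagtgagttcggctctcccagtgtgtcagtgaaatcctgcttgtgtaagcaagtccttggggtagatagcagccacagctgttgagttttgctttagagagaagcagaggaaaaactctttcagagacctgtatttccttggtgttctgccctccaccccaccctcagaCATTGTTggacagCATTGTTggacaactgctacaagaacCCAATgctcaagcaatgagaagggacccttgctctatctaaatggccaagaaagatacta
Pitpnc1: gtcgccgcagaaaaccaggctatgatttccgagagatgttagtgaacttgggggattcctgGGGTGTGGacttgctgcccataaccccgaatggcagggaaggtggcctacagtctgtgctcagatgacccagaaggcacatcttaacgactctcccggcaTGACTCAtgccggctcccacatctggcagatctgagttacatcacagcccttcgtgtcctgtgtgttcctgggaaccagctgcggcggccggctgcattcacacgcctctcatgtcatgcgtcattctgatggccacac
Gse1: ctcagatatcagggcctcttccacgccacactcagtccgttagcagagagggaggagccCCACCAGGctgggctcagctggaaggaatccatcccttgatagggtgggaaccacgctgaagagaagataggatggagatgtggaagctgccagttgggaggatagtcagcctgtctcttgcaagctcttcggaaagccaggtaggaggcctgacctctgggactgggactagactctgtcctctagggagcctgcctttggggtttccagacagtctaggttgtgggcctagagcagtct
The Esrrb window holds CATTGTT at 2 places and CCAAT at 2, the Pitpnc1 window holds the Klf4 word GGGTGTGG and the AP-1 word TGACTCA, and the Gse1 window holds the Ctcf core CCACCAGG. These windows had 3, 13 and 4 CG dinucleotides and GC contents of 48.0%, 56.7% and 57.0%, and no vM1 exon overlapped the regions they come from. These mm9 regions are a separate call and are not the same intervals as the mm10 peaks.

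Narrow gene-body peaks were short and weak by the deposited measures. Their median width was 665 bp (quartiles 463 to 979) and their median signal value, the enrichment the authors give for each peak, was 4.21 (3.45 to 5.90), with a range from 1.61 to 76.2. Together they covered 15.6 Mb. A signal value over 20 was held by 476 of them (2.35%), and 17140 (84.5%) had a deposited q under 1e-05. Narrow distal peaks outside genes looked alike on these measures, with a median signal of 4.31 and 1.64% over 20 among 9865 peaks, while the 18710 peaks within 1 kb of a gene 5′ end had a median of 28.5 and a median width of 1735 bp. The 1420 wider distal peaks in gene bodies had a median signal of 12.5 and 32.8% of them were over 20.

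**Figure D1:**
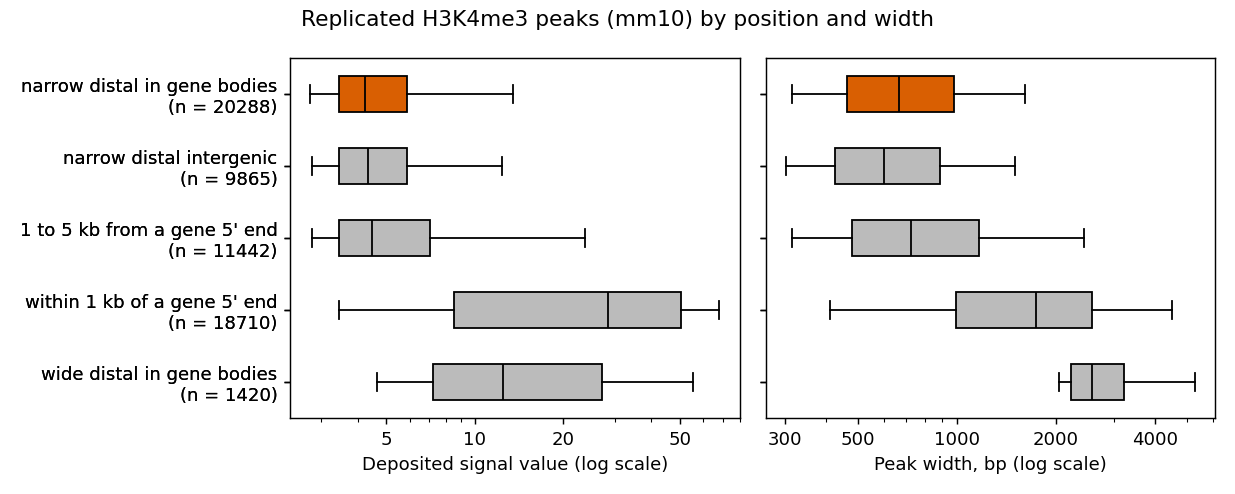
Deposited signal value (left) and peak width in bp (right), both on log scales, for the replicated mm10 peaks by position and width; boxes span the quartiles with the median as a line, and whiskers reach the 5th and 95th percentiles. The narrow gene-body peaks (orange, median signal 4.21) sit beside the narrow intergenic peaks (4.31) and far below the peaks within 1 kb of a gene 5′ end (28.5).

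Both replicates held most of these peaks, though a somewhat smaller share than of the whole list. Of the 20288, 19320 (95.2%) overlapped a peak in the list of replicate 1, 18663 (92.0%) one in the list of replicate 2, and 17738 (87.4%, Wilson 95% interval 87.0 to 87.9) one in both. A further 1582 were matched only in replicate 1, 925 only in replicate 2 and 43 in neither. The share matched in both was 90.7% over the whole list, 86.9% for narrow intergenic peaks and 97.3% for peaks within 1 kb of a gene 5′ end. The intervals cover counting error only, and the replicated list was itself derived from these lists. Among peaks matched in both, the median signal was 4.40 in replicate 1 and 4.15 in replicate 2, and the values lay within 2-fold of each other for 17422 (98.2%). Spearman's rank correlation between the replicates was 0.707 over these 17738 peaks, which share their positions and the selection by both lists.

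Replication followed the signal. Over 4 groups of 5072 peaks ordered by signal, 66.5%, 85.4%, 97.8% and 100% were matched in both replicates. Median widths in these groups were 501, 554, 715 and 1055 bp. Called from 1 replicate alone, the same rule gave 31449 peaks in replicate 1 and 29741 in replicate 2 (mean 30595 ± 1208, SD, n = 2).

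**Figure D2:**
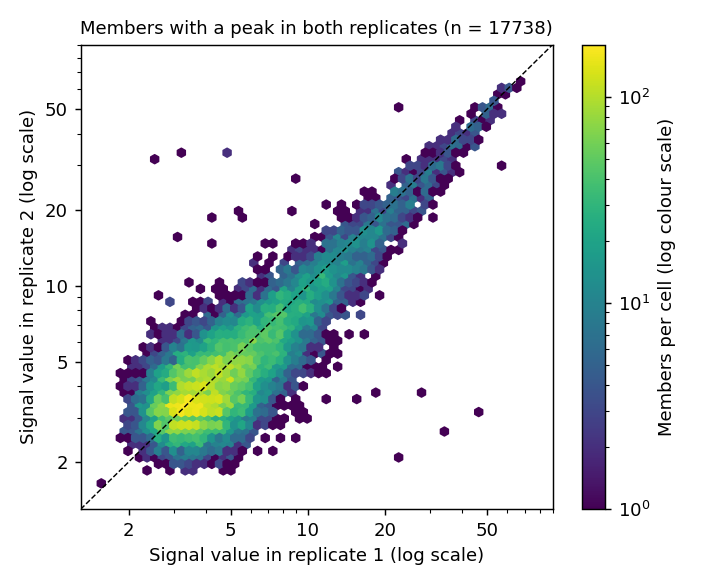
Signal value in replicate 1 against replicate 2, both on log scales, for the 17738 narrow gene-body peaks matched in both lists; colour gives the number of peaks per hexagon and the dashed line marks equal values. Most peaks sit at a low signal, around the medians of 4.40 and 4.15, and the cloud narrows along the line as signal increases.

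The very strongest peaks lay mostly at additional gene starts, and most peaks with a signal over 20 did not. The RefSeq promoter table gives transcript starts inside genes on every chromosome but 18, where 19737 of the peaks lie. Of these, 492 (2.49%) contained a start and 700 (3.55%, Wilson 95% interval 3.30 to 3.81) lay within 1 kb of one. Those 700 had a median signal of 8.48 (quartiles 4.46 to 22.3) and 195 of them (27.9%) were over 20. The other 19037 had a median of 4.17, and 266 of them (1.40%) were over 20. Of the 100 strongest peaks, all at 40.5 or above, 71 were within 1 kb of such a start. The table is not complete, so a peak away from its starts may still hold one.

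The 10 strongest peaks show both situations. The highest signal belonged to a peak in Dynll2, which encodes a dynein light chain, at chr11:87985593-87987587 (mm10). Its signal was 76.2, with 67.5 in replicate 1 and 64.4 in replicate 2, and the nearest tabled start was 59786 bp away. Triobp, an actin-bundling protein gene, followed at 70.0 (61.7 and 61.9 in replicates 1 and 2), with a start inside the peak. Starts also lay inside the peaks in Dhx30 at 69.9 (63.1 and 60.4), an RNA helicase gene, and in Zcchc4 at 68.9 (59.5 and 61.4), whose product methylates ribosomal RNA.

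The same held for Osbpl11 at 68.2 (60.2 and 61.1), a lipid transfer protein gene, and for Med10 at 67.9 (59.5 and 59.8), a subunit of Mediator. It also held for Nemp2 at 66.9 (58.0 and 59.3), a nuclear envelope protein gene, and for Zfp638 at 65.0 (59.4 and 55.5), a zinc finger gene. Pik3c3, the class III phosphatidylinositol 3-kinase gene, stood at 67.0 (56.8 and 61.9) on chromosome 18, which the start table does not cover. The peak in Tmem135, a transmembrane protein gene, reached 62.7 (53.8 and 56.5), 64739 bp from the nearest tabled start. The strongest narrow distal mm9 region in Tmem135, at 26.3, held a vM1 transcript start. Whether it is the same site was not tested, since no coordinate was moved between builds. In all 10, the values of both replicates were of a similar size and far above the median of the whole set. The peaks in Dynll2, Triobp and Dhx30 were 1995, 1891 and 1768 bp wide, and the next peak of the list lay 104, 108 and 52 bp away. For the rest of the 10 it lay at least 2706 bp away. Whether those close peaks are parts of wider marked stretches was not tested.

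Starts inside narrow gene-body peaks numbered 551, from 463 genes. The 300 bases around them had a median CpG observed over expected ratio of 0.466 and a GC content of 56.7%, against 0.384 and 52.7% over all 32851 starts in the table. Among protein-coding genes with eligible body on the chromosomes of the table, a start inside a narrow gene-body peak was found for 162 of 4049 (4.001%) whose outermost 5′ end had no peak within 1 kb and for 275 of 11459 (2.40%) whose outermost 5′ end had one.

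Most of the peaks overlapped protein-coding genes, which also hold most of the gene body where they could lie. The rule itself required overlap with a gene body. A protein-coding gene body was overlapped by 18671 (92.0%), and 1537 lay in lncRNA genes only. Eligible body was 864.9 Mb summed over the 15893 protein-coding genes measured, beside 998.0 Mb for merged genes of all types. In all, 6324 protein-coding and 1190 lncRNA genes were hosts, 98.7% of the peaks were wholly inside a gene body, and 994 (4.90%) were within 1 kb of a protein-coding 3′ end. The peaks often came in strings: 7743 (38.2%) had another peak of the list within 1 kb, and for 6537 of these the nearest was another narrow gene-body peak. Joining peaks less than 3 kb apart gave 14198 runs, of which 10566 held a single peak and 1331 held 3 or more. The latter contained 25.2% of all narrow gene-body peaks.

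The longest run had 15 peaks over 24.6 kb in Trak1, which encodes an adaptor that links mitochondria to kinesin. Ldlrad3, a receptor family gene, held a run of 14 over 25.9 kb, and the genes Gm26885 and Gm36199 a run of 13 over 24.97 kb with a top signal of 26.9. Runs of 12 lay in Gse1, in Cbx7, a Polycomb subunit gene, and in Dtx1, a Notch pathway ubiquitin ligase gene. In the other runs the highest signal was 8.91 in Trak1, 8.20 in Ldlrad3, 11.6 in Gse1, 5.61 in Cbx7 and 20.99 in Dtx1.

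Counted per gene, Gse1, which encodes a component of histone deacetylase complexes, had 73 narrow gene-body peaks in its 353 kb, with a median signal of 4.03 and 65 of them matched in both replicates. Msi2, an RNA-binding protein gene, had 52 in 379 kb. Trak1 had 45, Sipa1l3, a Rap GTPase-activating protein gene, had 38 and Tns3, a tensin of focal adhesions, had 37. Myo10, a myosin of filopodia, followed with 34, Ctbp2, a transcriptional corepressor, with 33, Pitpnc1, a phosphatidylinositol transfer protein, with 30, Casz1, a zinc finger factor, with 29 and St6galnac3, a sialyltransferase, with 28. The strongest peak in these 10 genes was at 19.4 in Myo10 (19.1 in replicate 1 and 15.5 in replicate 2) and the weakest of the top peaks at 6.33 in Ctbp2 (6.36 and 5.96). All 10 genes had a peak at the 5′ end, with signal values from 30.1 at Gse1 to 76.8 at Sipa1l3.

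Among genes with at least 5 such peaks, the densest was Acvrl1, a type I receptor of the TGF-beta family, with 9 peaks or 76.2 per 100 kb of gene body over 5 kb from every 5′ end. Klf5, a Krüppel-like factor of the naive state, had 7 (72.0 per 100 kb). Soat2, which esterifies cholesterol, reached 62.1 per 100 kb and Plcd1, a phospholipase C, 59.3. The ubiquitin ligase gene Trim8 reached 59.1 and the neurotrophin receptor gene Ngfr 57.6. Taf5l, a SAGA subunit gene, Pprc1, a transcriptional coactivator gene, and Ywhag, a 14-3-3 protein gene, had 53.8, 53.6 and 52.5. These bodies were short, from 8.05 kb in Soat2 to 20.9 kb in Ywhag, so 5 to 11 peaks sufficed.

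Genes whose own 5′ end was marked held more of these peaks per length. Of 15893 protein-coding genes with gene body over 5 kb from every 5′ end, 6271 (39.5%) had at least 1 narrow gene-body peak, at 2.17 per 100 kb overall. Among the 11773 with a replicated peak within 1 kb of their 5′ end, 44.5% had one, at 2.38 per 100 kb. Among the 4120 without, 25.02% had one, at 1.40 per 100 kb. The ratio of densities was 1.70 in the replicated list, 1.87 in replicate 1 and 1.80 in replicate 2 (mean of the replicate lists 1.83 ± 0.0446, SD, n = 2), and the 2 replicates did not differ in direction. In marked genes the density was 1.74, 2.30, 3.03 and 2.88 per 100 kb over 4 groups of genes from the lowest to the highest 5′ signal.

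Density was lower in the bins farther from the 5′ end in both kinds of gene. In marked genes it was 4.98 per 100 kb at 5 to 10 kb, 4.07 at 10 to 20 kb, 3.05 at 20 to 50 kb, 2.30 at 50 to 100 kb, 1.53 at 100 to 200 kb and 0.974 at 200 to 500 kb. In unmarked genes it went from 2.21 at 5 to 10 kb to 0.531 at 200 to 500 kb. The marked genes were higher in each of the 6 bins. Median signal stayed between 4.03 and 4.31 in the bins of marked genes, so the nearer peaks were more frequent and not stronger. In unmarked genes it ranged from 4.21 to 5.03. The bins do not hold the same genes. Marked genes reaching a bin numbered 11773 at 5 to 10 kb and 788 at 200 to 500 kb, and unmarked genes 4120 and 191. Only long genes reach the far bins, and longer bodies had a lower density as a whole. A fall along single genes was not tested.

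**Figure D3:**
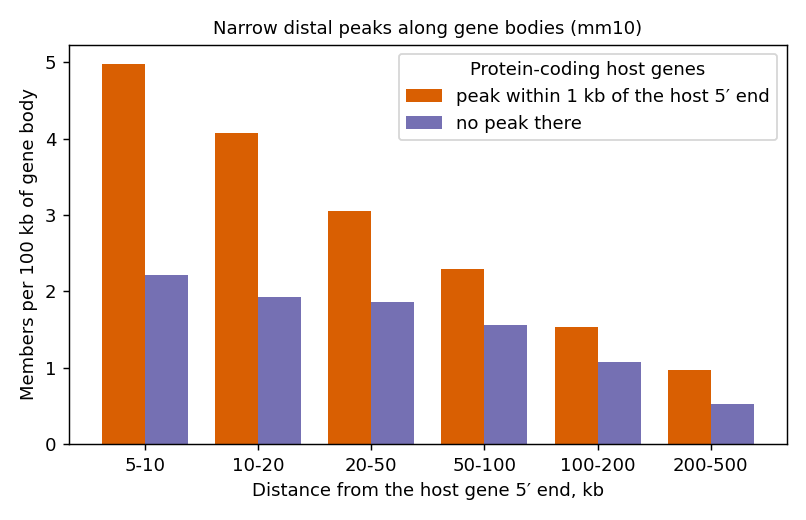
Narrow gene-body peaks per 100 kb of gene body (vertical axis) by distance in kb from the host gene's 5′ end (horizontal axis), for protein-coding genes with (orange) and without (purple) a replicated peak within 1 kb of that end. Both series are lower in farther bins, from 4.98 to 0.974 in marked and from 2.21 to 0.531 in unmarked genes. The farther bins hold fewer and longer genes.

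Genes of the pluripotency network held many of these peaks in a few large bodies. Of 31 core and naive pluripotency genes with gene body far enough from 5′ ends, 16 (51.6%, beside 39.5% of all protein-coding genes) had at least 1 peak, at 9.19 per 100 kb against 2.17 over all protein-coding genes. The median per gene was 0.886 per 100 kb, since 15 had none. Jarid2, a Polycomb cofactor, had 19 peaks, with a top signal of 9.35 (8.56 in replicate 1 and 8.29 in replicate 2). Ncoa3, a nuclear receptor coactivator that works with Esrrb, had 17, with a top of 6.18 (5.63 and 4.72).

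Esrrb, an orphan nuclear receptor of the naive network, had 16, although its RefSeq 5′ end carried no replicated peak within 1 kb. Its strongest reached 6.73 (5.70 and 6.90). Tfcp2l1, another naive factor, had 2 peaks with a top of 4.39 (5.70 and 4.92). Nr5a2, a nuclear receptor that drives Pou5f1, had 1 at 3.51, matched at 4.30 in replicate 1 and by no peak in replicate 2. The only one in Nanog, at 5.52 (4.27 and 6.22), overlapped just the 3′ end of the gene, chr6:122714605-122715378 on mm10. The gene ends at 122714633, so most of this peak lay beyond it. Prdm14, Zfp42, Dppa2 and Dppa4 had none in bodies of 4.24 to 8.74 kb, Klf4 has only 0.338 kb in which one could lie, and the small genes Pou5f1 and Sox2 have no body over 5 kb from a 5′ end. Short bodies such as these leave little room for a peak.

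DNA demethylation and methylation genes differed in the same way. Tet1 and Tet2, the 5-methylcytosine oxidases, had 11 and 13 peaks with top signals of 4.79 (4.07 and 4.92 in replicates 1 and 2) and 5.69 (5.63 and 4.67). Dnmt3a, a de novo methyltransferase, had 12, up to 8.48 (8.56 and 6.995), and Dnmt3b, its relative, had none in 33.3 kb of eligible body.

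The list of formative and primed epiblast genes had a peak in 8 of 15 genes (53.3%, beside 39.5% of all protein-coding genes). Its density was 8.81 per 100 kb. Lef1, the WNT-responsive factor, had 15 with a top of 9.63 (9.15 in replicate 1 and 10.1 in replicate 2), all matched in both replicates. Grhl2, an epithelial enhancer factor, had 13, with a top of 11.0 (11.5 and 8.34). Otx2 and Cdh2 had none.

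In the list of LIF, FGF, WNT and TGF-beta signalling genes, 21 of 32 (65.6%, beside 39.5% of all protein-coding genes) had a peak. The density was 4.73 per 100 kb. Eligible bodies of this list had a median of 59.3 kb, against 19.95 kb over all protein-coding genes. Over all genes with bodies of 50 to 100 kb, 58.2% of marked and 48.2% of unmarked genes had a peak. Lef1, with its 15, is on this list as well. Tcf7l1, a WNT pathway repressor, had 12 with a top of 7.46 (7.34 and 5.92). Lifr, the LIF receptor, had 11, at most 4.35 (4.63 and 3.36), while its co-receptor gene Il6st had none in 37.8 kb. Etv5, an ERK-induced factor, had 10 with a top of 6.04 (6.36 and 5.96), and Smad7, an inhibitor of TGF-beta signalling, had 5 with a top of 4.91 (3.42 and 4.598). The receptor genes Acvr2a and Bmpr2 had none. Receptors of this list therefore included genes with many peaks and genes with none.

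Chromatin regulators had a peak in 28 of 47 genes (59.6%, beside 39.5% of all protein-coding genes), at 3.73 per 100 kb. Their eligible bodies were also long, with a median of 54.9 kb, and 58.2% of all marked genes of 50 to 100 kb had a peak. Jarid2, with its 19, is on this list as well. Arid1b, a subunit of the BAF remodeller, had 18, and its strongest reached 32.8 (31.1 and 26.9 in replicates 1 and 2) at chr17:5189186-5190843 on mm10, 194112 bp from the nearest tabled start. Ash2l, a COMPASS subunit, and Chd4, the NuRD remodeller, had none. Cell cycle and DNA replication genes had a peak in 11 of 34 (32.4%, beside 39.5% of all protein-coding genes), at 2.50 per 100 kb. The cyclin gene Ccnd3 led with 16, top signal 8.70 (7.73 and 8.03). Mad1l1, a spindle checkpoint gene, had 6, top signal 9.63 (8.90 and 8.69). Aurka and Bub1, both mitotic kinases, had none.

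Housekeeping genes had a peak in 4 of 26 (15.4%, beside 39.5% of all protein-coding genes), at 1.15 per 100 kb. The glycolytic gene Eno1 had 2 and Ywhaz 2. B2m, with 0.395 kb of eligible body, and the clathrin gene Cltc had none, although Cltc had a 5′ peak of 89.8 and 58.2 kb of eligible body. The stem cell regulators Trim71 and Lin28b, both RNA-binding proteins, had 9 and 2, with top signals of 6.90 (7.10 and 5.96) and 12.8 (11.7 and 10.9). Mycn had none in 0.743 kb of eligible body.

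Lists of other lineages also held them. Developmental transcription factors had a peak in 32 of 46 genes (69.6%, beside 39.5% of all protein-coding genes), at 1.96 per 100 kb. Their eligible bodies had a median of 89.5 kb, against 19.95 kb over all protein-coding genes. Over all marked genes the share with a peak rose with length, from 30.8% in bodies under 20 kb to 75.4% over 200 kb. Prdm16, a zinc finger factor of brown fat and neural lineages, had 17, and Foxp1, a forkhead factor, had 13. Their top signals were 7.76 (6.61 and 8.55) and 9.35 (10.03 and 6.74), and Dach1 and Ebf2 had none. Long neuronal adhesion and synapse genes had one in 38 of 51 (74.5%), but at 0.252 per 100 kb of bodies with a median of 1061 kb. Among these, Auts2 had 20 and Dlgap1, a postsynaptic scaffold gene, had 16 with a top of 25.7 (26.4 and 20.2), while Cntn5 and Cntn6, neuronal adhesion genes, had none.

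Extraembryonic endoderm and trophectoderm genes had a peak in 18 of 29 (62.1%, beside 39.5% of all protein-coding genes), at 3.24 per 100 kb. Their eligible bodies had a median of 31.8 kb, longer than the 19.95 kb over all protein-coding genes. Lamc1, a laminin chain, had 9 and Tead4, a trophectoderm factor, had 8. Bmp8b and Cubn had none. Liver and blood genes had one in 15 of 35 (42.9%, near the 39.5% of all protein-coding genes), at 2.57 per 100 kb, with 6 in Ass1, a urea cycle enzyme gene, and 4 in Blnk, a B cell adaptor gene, and none in Ahsg and Alb, whose eligible bodies were 0.065 and 10.7 kb.

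Muscle and heart genes had a peak in 15 of 27 (55.6%, beside 39.5% of all protein-coding genes), at 1.08 per 100 kb. Their eligible bodies had a median of 56.4 kb, longer than the 19.95 kb over all protein-coding genes. Ryr1, the calcium release channel of skeletal muscle, had 15 with a top of 22.9 (21.8 and 16.2), and Ldb3, a Z-disc gene, had 8 with a top of 16.2 (15.2 and 14.0). Actc1 and Ckm had none, but only 0.593 and 0.322 kb of eligible body.

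Fibroblast genes had a peak in 9 of 25 (36.0%, near the 39.5% of all protein-coding genes), at 1.37 per 100 kb. Cald1, an actin-binding protein gene, had 3, the strongest at 23.1 (21.5 and 19.4) over a RefSeq start. Fbn1, the fibrillin gene, had 2, and Acta2 and Col1a2 had none. The part of other cell types in any of these counts was not tested. Among the 12 lists, some of which share genes, the highest density belonged to the pluripotency genes and the lowest to the long neuronal genes. Over all genes density was lower in longer bodies: marked genes had 6.32 per 100 kb in bodies under 20 kb and 0.963 in bodies over 200 kb.

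**Figure D4:**
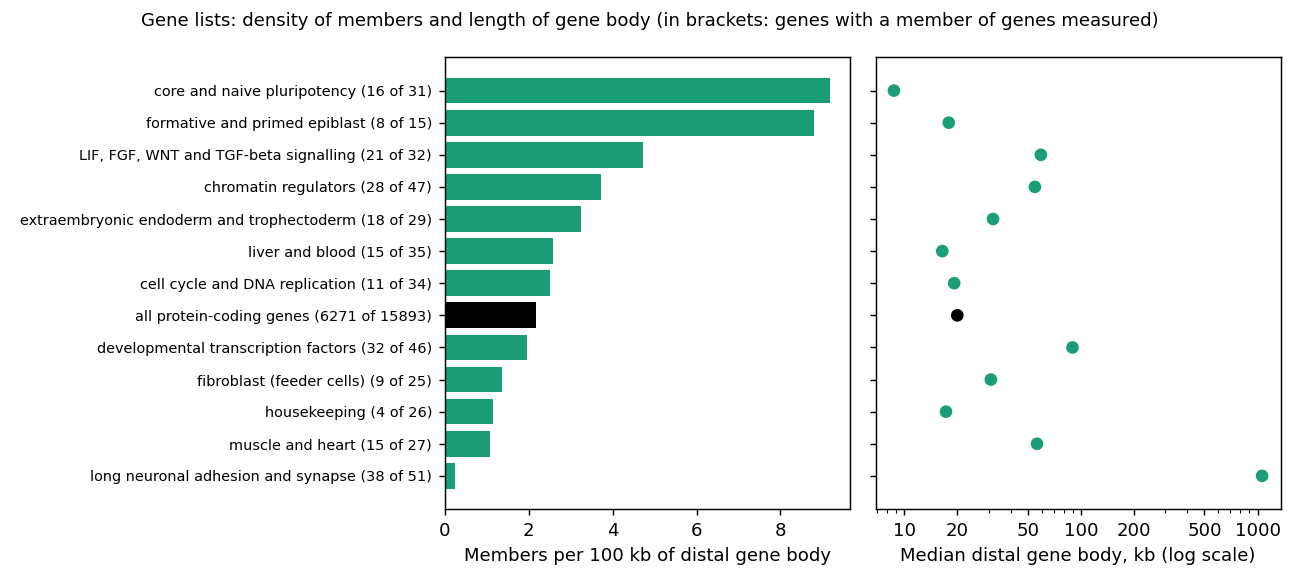
Narrow gene-body peaks per 100 kb of gene body (left) and the median gene body length in kb on a log scale (right) for 12 gene lists and all protein-coding genes (black); brackets give genes with a peak of genes with eligible body. Pluripotency genes reached 9.19 per 100 kb and long neuronal genes 0.252, beside 2.17 over all protein-coding genes.

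The X chromosome was sparse in narrow gene-body peaks. It held 164, or 0.371 per 100 kb of eligible gene body of all gene types, against 2.11 over the autosomes, where the lowest value was 1.48 on chromosome 1 and the highest 3.49 on chromosome 11. In the list of replicate 1 the X had 0.513 and the autosomes 3.28 per 100 kb, and in replicate 2 0.522 and 3.10, so both replicates showed it. The Y chromosome had none in 1.98 Mb of eligible body.

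On the X the density was 0.357 per 100 kb in the 361 protein-coding genes with a marked 5′ end and 0.359 in the 299 without, whereas on the autosomes it was 2.46 and 1.497. Other H3K4me3 values moved the same way: the peaks within 1 kb of a 5′ end had a median signal of 17.97 on the X and 29.2 on the autosomes, and 54.7% against 75.1% of genes with eligible body had a marked 5′ end. The line is labelled male, and the part of X copy number in the result was not tested.

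**Figure D5:**
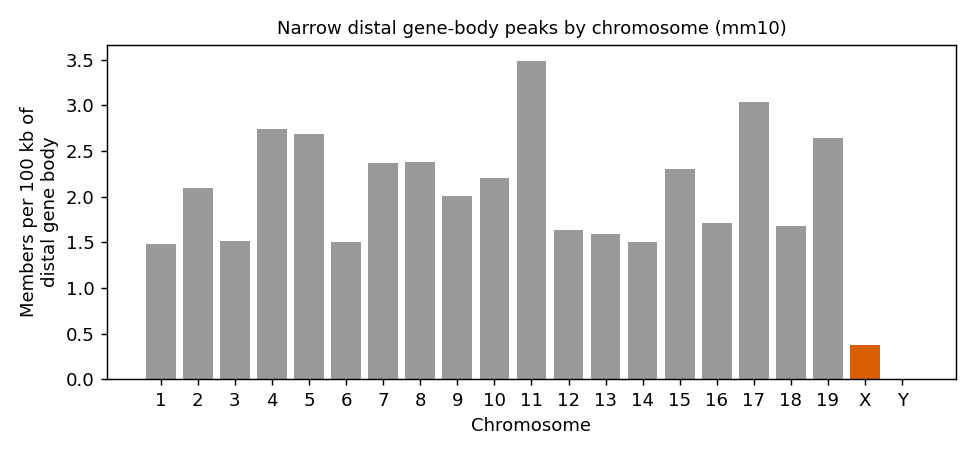
Narrow gene-body peaks per 100 kb of gene body over 5 kb from every 5′ end, by chromosome, in the replicated mm10 list. The X chromosome (orange, 0.371) lies below every autosome, of which the lowest is chromosome 1 at 1.48, and the Y chromosome has none.

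Exon position and base composition were read on mm9, whose regions stand in for the mm10 peaks and do not match them gene by gene. Gse1 had 3 such mm9 regions against 73 mm10 peaks, Tet1 1 against 11, and Ryr1 14 against 15. Trim71, Etv5 and Klf5 had no such mm9 region, whereas Cntn5, without an mm10 peak, had 5. In the authors' pooled mm9 list, called separately as broader regions, the same rule with GENCODE vM1 genes gave 12811 of 64140 regions (20.0%), with a median width of 1200 bp. Of these, 38.4% touched an exon, 33.4% a coding exon, and 61.6% touched no exon. Another vM1 transcript start was within 1 kb of 10.01% (Wilson 95% interval 9.51 to 10.5), and those 1283 regions had a median signal of 4.39 against 3.75 for the rest. CpG observed over expected had a median of 0.321 (quartiles 0.237 to 0.426). A share of 2.38% was CpG-rich, with a ratio above 0.6 and a GC content over 50%, and this group had a median signal of 10.6 against 3.75.

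Windows of 300 bp at the region centres were richer in GC than distal gene-body sequence as a whole. Their median GC content was 54.3% and their CpG ratio 0.356, against 42.3% and 0.164 in 2960152 windows tiling all gene-body sequence over 5 kb from 5′ ends. At 22364 protein-coding gene starts the values were 58.0% and 0.598, so the regions lay between both. Centres of narrow intergenic regions were alike, with 55% and 0.406.

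Part of these regions was made of sequence that recurs in the list, a feature noticed after the data were examined. A window was called recurrent when it shared a word of 30 bases with at least 10 windows of the whole list. This held for 2307 (18.01%, Wilson 95% interval 17.4 to 18.7) of the narrow gene-body regions, for 46.7% of narrow intergenic regions and for 5.47% of regions within 1 kb of a 5′ end. The most frequent word was in 1856 windows of the list, 367 of them in narrow gene-body regions.

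Recurrent narrow gene-body regions had a median signal of 9.06 against 3.54 for the others, and 75.9% against 49.1% were matched in both replicates' mm9 lists. They made up 1075 of the 1646 regions (65.3%) with a signal over 10. An exon was touched by 7.72% of them, against 45.1% of the others, and their CpG ratio was 0.445 against 0.300. On the X chromosome recurrent regions occurred at 0.371 per 100 kb and on the autosomes at 0.252, while the other regions occurred at 0.197 and 1.22. The low density of the X was thus seen in the regions without recurrent words and not in those with them.

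Motif words were counted on both strands in the same windows, with windows tiling distal gene-body sequence as the background share. The words were ATGCAAAT (octamer), CTTTGTT and CATTGTT (Sox), TCAAGGTCA (Esrrb), GGGTGTGG (Klf4), CACGTG (E-box, the Myc site), CCAAT (NF-Y), TGACTCA (AP-1), CCACNAGG (Ctcf core) and CCGGAAG (Ets), besides a joint Oct4-Sox2 word and an Nrf1 word. The joint word was in 1 window, and the Nrf1 word in 17 (0.133%) against 0.0156% of tiles. Of the words spelled out none contains another, the joint word holds the octamer, and a match is a word in the sequence and no sign of binding.

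The Ets word was in 6.42% of narrow gene-body windows against 0.881% of tiles and 11.3% of gene starts. Recurrent windows held it in 16.9% and the others in 4.12%. The Klf4 word was in 4.14% against 1.91% of tiles, the E-box in 6.19% against 3.33% and the Ctcf core in 5.64% against 3.37%. In region windows of 50 to 60% GC without recurrent words, the Ets word was in 4.45%, against 2.07% of tiles of that GC. The Klf4 word was in 5.65% against 3.98%, the E-box in 6.52% against 5.34% and the Ctcf core in 6.96% against 6.84%. At like GC the Ctcf core therefore came close to its background share, and the Ets, Klf4 and E-box words kept a higher share. The tiles were limited by GC only and not screened for recurrent words. CpG content was not matched, and the Ets word and the E-box each hold a CG.

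The AT-rich words went the other way over all windows. The octamer was in 1.14% against 2.26% of tiles, CTTTGTT in 5.55% against 8.57%, CATTGTT in 3.08% against 5.63% and CCAAT in 29.0% against 37.3%. Within 50 to 60% GC and without recurrent words the octamer was in 1.18% against 0.717% of tiles, CTTTGTT in 5.50% against 5.08% and CATTGTT in 2.84% against 2.69%, so all of these turned direction. CCAAT did not, with 27.1% against 29.95%. The Esrrb word turned too, from 0.726% against 0.701% over all windows to 0.697% against 0.740% at like GC. The AP-1 word was at 4.27% against 4.88% and at 4.95% against 5.27%. No motif share was tested.

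The limits of width and distance cut through continuous ranges. The 210 peaks of 1900 to 2000 bp had a median signal of 8.001 and the 184 of 2000 to 2100 bp one of 10.6. Just inside were peaks in Cabp1 (1999 bp), Gabbr2 (1998 bp) and Unc5b (1998 bp), and just outside those in Ezr, Sort1 and Sgsm1 (2000 bp each). The 1434 peaks at 5 to 6 kb from a 5′ end had a median of 4.31 and the 1558 at 4 to 5 kb one of 4.28. Peaks in Tmem63b (5001 bp) and Lrig2 (5002 bp) were just inside this limit, and those in Cfap52 (5000 bp), Gm46484 (4997 bp) and Gdnf (4996 bp) just outside.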

How the data were processed

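H3K4me3 was measured by ChIP-seq in 2 replicates of E14TG2a.4 that form 1 group. On mm10 the authors deposited narrowPeak lists for each replicate, for both pooled and for replicated peaks, and on mm9 broadPeak lists for each replicate and for the series, per the descriptions deposited with them. No source used here names the aligner or the peak caller. The deposited signal value was read as a ratio of ChIP over control, whose denominator no source states. The deposited mm10 p-value and q-value are on the −log10 scale and the deposited mm9 p-value and q-value are not transformed. The deposited display score was not used, and the deposited summit offset was not used.

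Distances ran from a peak's nearest edge. Strand came from the RefSeq promoter table for 27024 of 49939 genes and from vM1 genes for 8745 by name and 975 by synonym; the other 13195 counted at both ends. Density is peaks per 100 kb of gene body over 5 kb from every 5′ end. No coordinate was moved between builds, and chromosome 18 is not in the promoter table. Overlap was at least 1 bp. Shares carry Wilson 95% intervals.

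The members and the gene lists were chosen with earlier results of these data known, and the lists come from textbook knowledge. Genes named are the 10 strongest peaks' hosts, the 10 genes with most peaks, the 10 densest with at least 5, per list the 2 genes with most peaks and the first 2 alphabetically without, fixed stem cell genes, and the peaks at each limit; the genes of the longest runs were named after their values were seen. Of the genes this rule names, 2 are not reported here. Starts inside peaks and recurrent words were added after seeing the data. Nothing was tested between groups. Other peak lists, widths, distances, q limits, overlaps and strand rules were tried. The scripts, tested on simulated intervals, used Python 3.11.15, NumPy 2.4.6, pandas 2.3.3, SciPy 1.17.1 and Matplotlib 3.10.9.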

Additional observations from a re-analysis of the deposited data

How the results depend on the processing

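Of the 7 results recomputed here, only the density ratio has a direction, and it kept that direction. The rest are counts, shares and medians. Among the motif shares, that of the octamer turned at like GC. Those of both Sox words came close to background, as given with them. The rule gave 29741 to 31449 peaks when 1 replicate was left out and 36909 in the pooled list, against 20288. Their median signal was 3.63 to 3.67 with 1 replicate left out, 3.16 pooled, 4.601 at q under 1e-05, 3.88 under 1000 bp, 4.31 without strandless genes, and 4.17 over 10 kb away, with both gene ends counted, wholly inside a gene, in protein-coding genes or away from RefSeq starts. The share in both replicates was 92.1% at q under 1e-05, 83.7% under 1000 bp, 86.8% with both gene ends counted and 71.7% for an overlap of at least 50% of the peak.

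The density ratio of marked over unmarked genes (1.70) was 1.80 to 1.87 with 1 replicate left out, 1.90 pooled, 1.64 at q under 1e-05, 1.75 over 2 kb away and 1.88 with marking within 2 kb. It was 1.81 without peaks at RefSeq starts and 2.02 with marking at any RefSeq start, both chosen after seeing the data. Pluripotency genes with a peak numbered 13 to 22 over 12 alternatives. The mm9 share near another start (10.01%) was 10.9 to 11.95% with 1 replicate left out, 7.67% under 1000 bp, 8.76% over 10 kb away, 5.02% for protein-coding transcripts, 8.72% within 500 bp and, added after seeing the data, 11.6% without recurrent words. The mm9 CpG ratio (0.321) was 0.334 to 0.348 with 1 replicate left out, 0.362 under 1000 bp, 0.356 in 300 bp centres and 0.300 without recurrent words. The cause of these shifts was not tested. No paired analysis was possible because the 2 replicates form 1 group. Unknown depth limits how many weak peaks each list holds.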
